A study of Homo sapiens with 19 samples.

Results

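Kinesins walk along microtubules and carry cargo, and a second class of proteins binds the microtubule lattice or its growing plus end and sets how stable the filament is. In epithelial cells microtubules run mostly along the axis from apex to base, and when cells turn mesenchymal the array is rebuilt toward the leading edge. Many of these genes have small cassette exons that add or remove a short peptide in a tail, hinge or coiled-coil region without changing the rest of the protein. The 7 genes described here were chosen by name. They were the motors KIF21A, a plus-end directed kinesin that slows microtubule growth at the cell cortex, KIF13A, which moves endosomes to the cell periphery, and KIF1B, a carrier of mitochondria and vesicle precursors, together with CLASP1, CLASP2 and CLIP1, which track growing plus ends, and MAP4, the main lattice-binding protein outside neurons.

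The study used HMLE/Twist-ER cells, Tert-immortalized human mammary epithelial cells with a Twist protein that tamoxifen switches on. Every culture used for poly(A) RNA carried a stable shRNA delivered by lentivirus. It was either a non-specific shRNA (control) or an shRNA against AKAP8, an RNA-binding nuclear protein. Untreated cells served as the epithelial state (EPI), and cells kept in 20 nM tamoxifen until their morphology was mesenchymal served as the mesenchymal state (MES), so the control and knockdown libraries of MES share the drug. Poly(A) RNA was sequenced from 3 EPI control, 3 EPI knockdown, 3 MES control and 2 MES knockdown cultures, which the methods call biological replicates, and AKAP8-bound RNA was mapped by single-end eCLIP in 2 replicates per state of cells for which the labels name no shRNA. The tamoxifen-driven Twist makes these cells a model of EMT forced by 1 transcription factor in 1 line.

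The 15 splicing tables, 5 event types in each of 3 comparisons, held 218798 rows in 11998 genes, and 279 of these rows belonged to 6 of the 7 genes. CLASP1 had no row, so its splicing was not analysed here. Each row gives the reads on junctions that include or skip a variable segment, in each library. From these reads percent spliced in (PSI) was computed, and ∆PSI is knockdown minus control, or MES minus EPI for EMT, in percentage points. The 279 rows were 129 distinct events over 68 variable segments, and 265 rows had the 20 junction reads per library on average that were required for a test. Of the tested rows in the EMT tables, 44 were in MAP4, 16 in KIF13A, 15 in KIF21A, 9 in KIF1B, 8 in CLIP1 and 2 in CLASP2. An event was called changed at an adjusted p under 0.05 and a |∆PSI| of at least 10 points. Junction reads over skipped-exon (SE) events came to between 31258177 and 40852217 per library. The tables number no library, so libraries are named here by their place in their group's list. The EPI control libraries were the same in the EPI knockdown and the EMT tables, with identical reads in 100% of 44899 shared SE events, and the MES knockdown tables used the first and the second of the 3 MES controls, so the comparisons share control samples.

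The knockdown was read from AKAP8 itself, in junction reads summed over its SE events and scaled for library size. AKAP8 had 244, 311 and 246 scaled reads in the EPI control libraries and 121, 99.1 and 125 after knockdown. In MES it had 383, 196 and 248 in control and 109 and 122 after knockdown. Every knockdown library was below every control library of its state, at 37.1% to 46.9% of the control mean in EPI and at 39.3% and 44.3% in MES. The log2 fold change was -1.20 (SE 0.25) in EPI with an adjusted p of 0.0664 from limma, and -1.20 (SE 0.28) in MES with an adjusted p of 0.0322. AKAP8L, a close relative of AKAP8, had a log2 fold change of -0.01 in EPI and 0.39 in MES, with adjusted p values of 0.993 and 0.292.

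The states were checked with marker genes in the same scaled reads. In MES controls, 7 of 7 epithelial markers with a value were lower than in EPI controls, and 9 of 9 mesenchymal markers were higher, with median log2 fold changes of -4.05 and 6.62. CDH1, the adhesion protein E-cadherin, had a mean of 1537 scaled reads in EPI control and 81.2 in MES control. The epithelial markers summed to 11342, 13710 and 11498 in EPI control and to 664, 1081 and 1058 in MES control, with ESRP1 the most abundant. The mesenchymal markers, of which FN1 was the most abundant, summed to 691553, 1148391 and 1575821 in EPI control and to 2928661, 5327449 and 3900737 in MES control. The 3 basal mammary markers with a value were also lower in MES. Of the leukocyte markers 1 had a value, CD68, and it was lower in MES, and no endothelial marker had a value. After knockdown the epithelial markers summed to 12363, 14686 and 10942 in EPI and to 526 and 821 in MES, and the mesenchymal markers to 881595, 1597904 and 1372243 in EPI and to 4680511 and 6102493 in MES. In EPI the knockdown sums of both lists overlapped those of the controls. In MES knockdown RAB25 had a log2 fold change of -1.41 at an adjusted p of 0.0315 from limma. CDH2 and TWIST1 had no value. In RNA from whole cultures, fewer cells of a type and less RNA per cell cannot be told apart.

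EMT changed 2 exons of these genes, and both were in kinesin motors. A 21-nt exon of KIF21A went from mostly skipped in EPI to mostly included in MES, and a 105-nt exon of KIF13A went the other way. These 2 were the called events among 94 tested, against 1.6% of the 67451 events tested in all genes. When the p was left unadjusted, 4 of the 94 events passed at 0.05 with at least 10 points, against 3.78% of all, and the additional 2 were a 39-nt exon in each of the same motors. Their sequences in GRCh37, read on the minus strand that both genes use, are shown because the differences rest on these segments. Capitals mark the exon and lower case the 30 nt of intron on either side.
KIF21A 21-nt exon: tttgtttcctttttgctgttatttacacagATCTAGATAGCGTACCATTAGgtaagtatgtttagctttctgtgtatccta
KIF21A 39-nt exon: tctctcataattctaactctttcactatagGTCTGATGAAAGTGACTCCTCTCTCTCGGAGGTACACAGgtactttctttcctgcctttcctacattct
KIF13A 105-nt exon: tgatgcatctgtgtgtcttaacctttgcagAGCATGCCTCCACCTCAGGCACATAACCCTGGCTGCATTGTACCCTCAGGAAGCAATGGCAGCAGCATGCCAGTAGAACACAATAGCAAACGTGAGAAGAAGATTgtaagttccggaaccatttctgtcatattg
KIF13A 39-nt exon: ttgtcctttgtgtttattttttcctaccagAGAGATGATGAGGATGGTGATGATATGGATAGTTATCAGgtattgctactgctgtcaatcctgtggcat
All 4 exons are bounded by AG and GT and have a length that is a multiple of 3, so that either form keeps the reading frame. The KIF21A 21-nt exon lies at chr12:39724044-39724064 and is wholly coding in 5 of the 9 coding transcripts of the gene. The KIF21A 39-nt exon, at chr12:39709734-39709772, is in 4 of the 9. The KIF13A 105-nt exon lies at chr6:17771345-17771449 and is coding in 3 of its 9 coding transcripts, and the KIF13A 39-nt exon, at chr6:17790103-17790141, in 4 of the 9.

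The KIF21A 21-nt exon had the largest shift of the tested events of these genes in each of the 3 comparisons. Its PSI was 13.7%, 8.32% and 10.8% in the EPI control libraries, from 125, 61 and 102 junction reads. In the MES controls it was 57.1%, 61.0% and 55.1%, from 39, 49 and 89 reads. The groups did not overlap, and the ∆PSI of 46.8 points had an adjusted p of 9.95e-09 in the quasi-binomial test moderated with limma. With any 1 library left out the difference lay between 45.1 and 48.1 points, and over the other settings tried the adjusted p lay between 5.9e-11 and 0.00221. The exact permutation test of 3 libraries against 3 gave p = 0.1, the smallest value that it can give, for this exon and for the KIF13A 105-nt exon.

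After AKAP8 knockdown in EPI the mean PSI of the KIF21A 21-nt exon was shifted toward that of MES, but the difference did not pass the threshold. PSI after knockdown was 27.5%, 40.9% and 23.1%, from 166, 88 and 185 reads, and every knockdown library lay above every EPI control library. The knockdown mean of 30.5% ± 9.31 (SD, n = 3) stood 19.6 points above that of the controls, 10.9% ± 2.68 (SD, n = 3). The unadjusted p was 0.000618 and the adjusted p 0.316 from the limma-moderated test across all SE events, with 0.0566 to 0.836 over the other settings. The second knockdown library had the highest PSI and the fewest reads, and without it the ∆PSI was the lowest of the leave-one-out values, 14.3 points. In MES the exon was included at 63.4% and 76.9% after knockdown, from 37 and 65 reads, above the 57.1% and 61.0% of the 2 controls in that table. The ∆PSI of 11.1 points was 4.35 without the second knockdown library and 17.8 without the first. It had an unadjusted p of 0.255 and an adjusted p of 0.763 from the same test, and with 2 libraries against 2 an exact permutation p cannot fall below 0.33. The knockdown effect in MES minus that in EPI was -7.13 points, with an adjusted p of 0.81 for the difference between states from the fit over all 11 libraries. Ordered by mean PSI, the groups ran from EPI control through EPI knockdown and MES control to MES knockdown. The EPI control and EPI knockdown groups and the MES control and MES knockdown groups were not separated by the test, and EPI knockdown was not tested against MES control.

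The KIF13A 105-nt exon ran in the opposite order. Its PSI was 73.8%, 57.2% and 66.4% in EPI control, from 252, 294 and 272 reads, and 15.9%, 28.9% and 20.7% in MES control, from 186, 225 and 143 reads. The groups did not overlap, and the ∆PSI of -44.0 points had an adjusted p of 1.27e-14 from the limma-moderated test. It lay between -48.2 and -40.0 points with 1 library left out, and the adjusted p over the other settings lay between 7.69e-24 and 0.0146. After knockdown in EPI the exon was included at 54.5%, 46.8% and 54.5%, each below the lowest control. That difference of -13.9 points had an unadjusted p of 0.0162 and an adjusted p of 0.705 from the same test. In MES the knockdown libraries had 18.9% and 15.4%, which overlap the control values, and the ∆PSI of -5.26 points had an adjusted p of 0.763.

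The 2 motors each carried a 39-nt exon that stayed on the near side of the threshold in EMT. KIF13A included its 39-nt exon at 82.5%, 78.5% and 79.9% in EPI control and at 94.3%, 89.6% and 90.6% in MES control. The groups did not overlap, and the ∆PSI of 11.2 points had an unadjusted p of 0.00149 and an adjusted p of 0.061 from the limma-moderated test. With the dispersion trend fitted on all junction reads the adjusted p was 0.0265. After knockdown in EPI this exon was at 74.5%, 71.8% and 76.7%, again outside the range of the controls, but its ∆PSI of -5.95 points had an adjusted p of 0.705 from the same test. In MES it was at 90.8% and 90.6% after knockdown, inside the control range. A second event of the same exon, with another upstream exon and 36 to 73 reads per library, had a mean of 92.5% in EPI control and 99.3% in MES control, with an adjusted p of 0.428 from the limma-moderated test. In that event the MES controls were at 98.0%, 100% and 100% and the MES knockdown libraries at 96.2% and 88.2%, both below every control, and the ∆PSI of -6.81 points in the MES table had an adjusted p of 0.763. In EPI its ∆PSI was -6.32 points, with an adjusted p of 0.705 and overlapping groups.

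KIF21A included its 39-nt exon at 3.05%, 1.65% and 3.79% in EPI control and at 19.4%, 10.01% and 16.8% in MES control, from 15 to 58 reads per library. The ∆PSI of 12.6 points had an adjusted p of 0.166 from the limma-moderated test and of 0.0358 from limma on the logit of PSI. Both MES knockdown libraries were at 0%, from 10 reads each, too few for a test in the MES tables. A second event of this exon had means of 0.356% in EPI control and 2.32% in MES control. In the fit over all libraries, the knockdown effect on this exon was 18.6 points lower in MES than in EPI, with an unadjusted p of 0.0199 and an adjusted p of 0.66. Of the 45 SE events of these genes in that fit 0 passed, against 0.00993% of 30197. A 129-nt exon of KIF21A next to it, at chr12:39711875-39712003, was included at 47.7%, 42.1%, 39.4% and 37.9% on average in EPI control, EPI knockdown, MES control and MES knockdown in its best-covered SE event, with no adjusted p under 0.05.

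**Figure D1:**
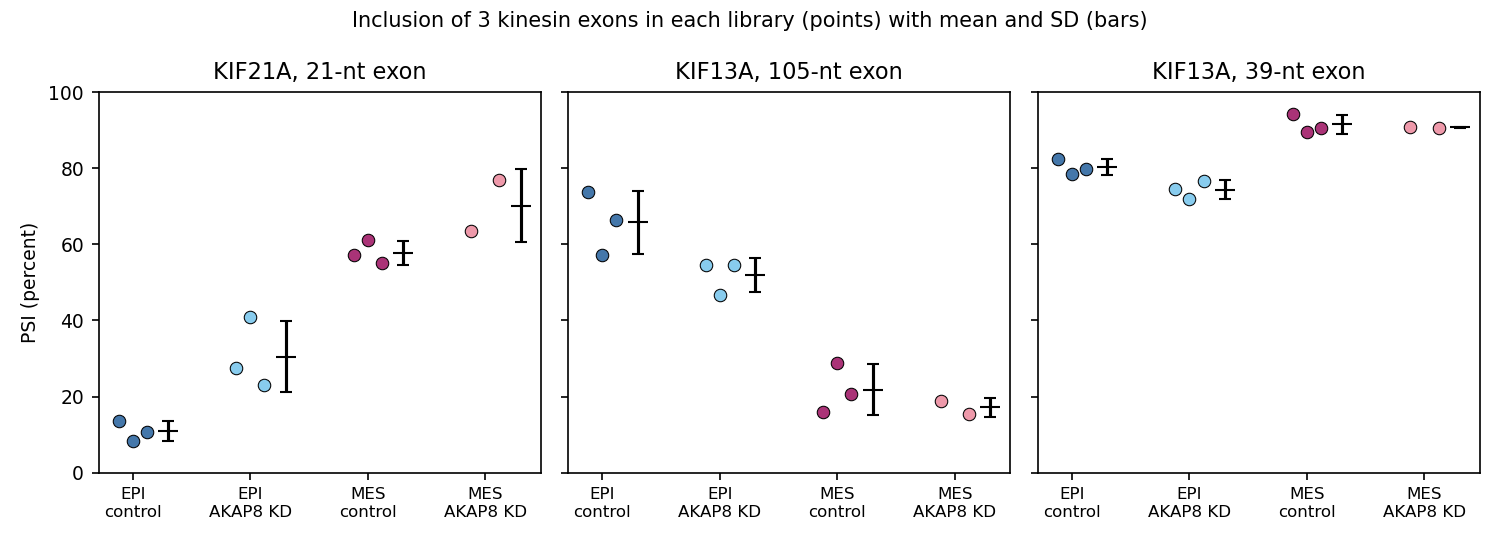
Percent spliced in (y axis, percent) of the KIF21A 21-nt exon, the KIF13A 105-nt exon and the KIF13A 39-nt exon in the 11 libraries of 4 groups (x axis). Points are libraries and bars the mean and SD. KIF21A rises from 10.9% in EPI control to 57.7% in MES control while the KIF13A 105-nt exon goes from 65.8% to 21.8%, and EPI knockdown lies between those groups for both exons.

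The introns beside these exons were searched for 3 letter strings, within 200 nt on either side. TGCATG is the DNA spelling of the element that RBFOX proteins bind, and ACTAAC and ACTAAT are spellings of the core element of QKI. Downstream of the KIF21A 21-nt exon TGCATG began 35 and 116 nt into the intron and ACTAAT 45 and 62 nt into it. The KIF13A 105-nt exon had TGCATG on both sides, ending 69 nt before the exon and beginning 150 nt after it. The 200-nt stretches that hold a match are printed 5′ to 3′ with the matches in capitals.
KIF21A downstream of the 21-nt exon, chr12:39723844-39724043: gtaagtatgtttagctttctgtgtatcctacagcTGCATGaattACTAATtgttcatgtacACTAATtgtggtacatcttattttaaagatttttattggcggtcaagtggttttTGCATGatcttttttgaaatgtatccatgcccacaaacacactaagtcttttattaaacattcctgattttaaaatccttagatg
KIF13A upstream of the 105-nt exon, chr6:17771450-17771649: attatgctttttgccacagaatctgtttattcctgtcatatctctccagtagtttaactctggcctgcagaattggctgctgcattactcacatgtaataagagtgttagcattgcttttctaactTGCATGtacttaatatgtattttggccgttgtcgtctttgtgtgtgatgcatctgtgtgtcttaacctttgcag
KIF13A downstream of the 105-nt exon, chr6:17771145-17771344: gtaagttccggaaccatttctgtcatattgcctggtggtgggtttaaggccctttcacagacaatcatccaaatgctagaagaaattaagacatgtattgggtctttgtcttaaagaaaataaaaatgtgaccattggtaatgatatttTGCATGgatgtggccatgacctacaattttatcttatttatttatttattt
Of 39005 distinct SE exons tested in EMT, 5.57% had TGCATG upstream and 5.96% downstream, against 4.2% and 4.3% for the reverse complement, CATGCA, which can share 4 letters with it. ACTAAT was upstream of 4.66% and downstream of 4.07%, and 4.62% and 4.89% on the opposite strand. ACTAAC was upstream of 2.5% and downstream of 2.2%, and 3.2% and 4.31% on the opposite strand. No match of these strings overlapped another in the stretches printed. Among the other exons named here, the KIF21A 39-nt exon had TGCATG and ACTAAT downstream, and a 105-nt exon of CLIP1 had TGCATG on both sides and ACTAAC upstream. The KIF13A 39-nt exon had none of the 3 strings within 200 nt. A match is a description of the letters and does not show binding.

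Most events of the 6 genes were near full inclusion in both groups. In EMT 59 of the 94 tested events had a mean PSI over 95% in both groups and 5 under 5%, against 59% and 5.66% of all events. The median |∆PSI| of the tested events was 0.544 points in EMT, where the median of all genes' events was 0.934. After knockdown it was 0.498 points in EPI and 0.659 in MES, beside 0.777 and 1.01 for all events. Of these genes' events 9.57% moved by over 5 points in EMT, 8.14% after knockdown in EPI and 10.6% in MES, against 14.7%, 10.3% and 13.6% of all events tested. No event of these genes was called after knockdown, of 86 tested in EPI and 85 in MES. The shares called among all events were 0.0492% and 0.054%, which in a list of this size comes to fewer than 1 event. At an unadjusted p under 0.05 and a |∆PSI| of at least 10 points, 2 events passed in EPI and 0 in MES, against 0.998% and 1.28% of all events. Limma on the logit of PSI called 0 events in either knockdown comparison over all genes, so it says nothing of these. The 2 in EPI were the KIF21A 21-nt and the KIF13A 105-nt exon.

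**Figure D2:**
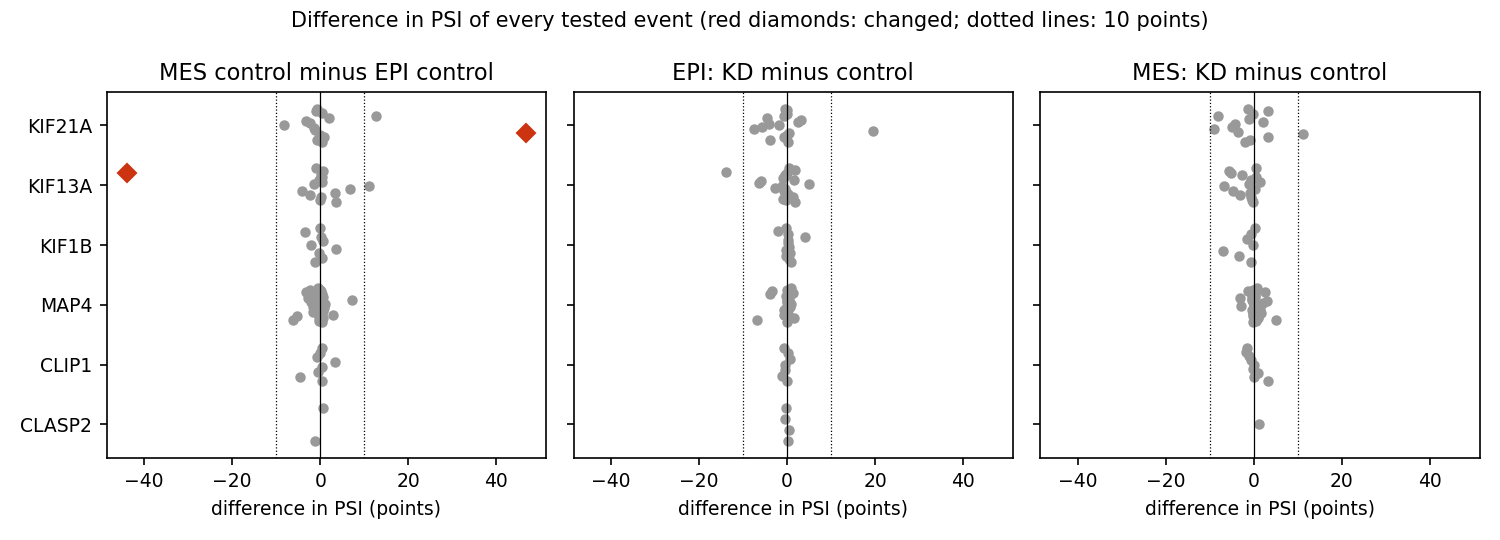
Difference in PSI (x axis, percentage points) of every tested event of the 6 genes with rows (y axis), for MES control minus EPI control and for knockdown minus control in EPI and in MES. Red diamonds are events called changed and dotted lines mark 10 points. The 2 called events, at 46.8 and -44.0 points in EMT, stand apart from the remaining events, most of which lie within 5 points of 0.

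In KIF1B, 5 of 9 tested events in EMT had a mean PSI over 95% in both groups. The event with the largest SE difference in EMT was a 249-nt exon at chr1:10386169-10386417, coding in 9 of 13 coding transcripts. It was included at 5.39%, 13.2% and 5.19% in EPI control, 7.14%, 11.9% and 5.75% in EPI knockdown, 7.14%, 15.9% and 11.6% in MES control, and 4.55% and 4.35% in MES knockdown. All 4 groups were low, and both MES knockdown libraries lay below the MES controls. The ∆PSI was 3.63 points in EMT and -7.07 points for knockdown in MES, with adjusted p values of 0.673 and 0.763 from the limma-moderated test. Single libraries moved these values, to between 1.45 (without the second MES control) and 6.25 points (without the second EPI control) in EMT, and to -2.70 points without the second and -11.4 without the first MES control for knockdown in MES. A 72-nt exon of KIF1B went from 99.1% to 100% in the EPI knockdown comparison, also without passing. A 78-nt extension at an alternative 3′ splice site, chr1:10342380-10342457, was the single tested event of these genes that was neither SE nor mutually exclusive. It had 9.66% in EPI control and 7.52% in MES control.

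MAP4 had the most events and the most reads, and 28 of its 44 tested events in EMT had a mean PSI over 95% in both groups. Its lowest p in EMT was that of an event typed as mutually exclusive, over a pair of exons near the 5′ end. One was a 242-nt exon at chr3:48040128-48040369, which reaches into the UTR in all 9 annotated coding transcripts that have it. The other was a 69-nt exon at chr3:48019355-48019423. In SE events flanked by the other exon of the pair, the 242-nt exon was included at 99.4% in EPI control and 99.7% in MES control. The 69-nt exon was included at 95.3% and 95.8% in such an event. The pair was thus mostly included together, and the use given below is a share of junction reads, not of exclusive forms. The 242-nt exon was used at 52.6%, 52.5% and 43.1% in EPI control, 45.0%, 43.9% and 38.6% in EPI knockdown, 45.3%, 40.5% and 43.7% in MES control, and 43.9% and 52.1% in MES knockdown. The third EPI control was lower than the other two, and with it the EPI control range overlapped that of every other group. In EMT the ∆PSI was -6.25 points with an adjusted p of 0.0303 from the limma-moderated test, under the 10 points needed for a call. A second event of the same type and exon had more reads, 2197 against 1896 per library on average. Its ∆PSI in EMT was -5.19 points, with an adjusted p of 0.378 from the same test. After knockdown the ∆PSI of the first event was -6.90 points in EPI, with an adjusted p of 0.663. In MES it was 5.08 points, with an adjusted p of 0.999. Without the third EPI control the EPI knockdown difference was -10.05 points at an adjusted p of 0.0114, so this library decided whether the event was called. A long exon of 1224 nt at chr3:47957441-47958664 was included at 99.9% in EPI control and 100% in MES control in its best-covered event, and at 90.2% and 97.4% in a second event with other flanking exons. A 114-nt exon at chr3:47910704-47910817 lay between 99.0% and 99.4% in all 4 group means in its best-covered SE event. In a second SE event with another downstream exon its inclusion was 78.4%, 77.7% and 81.5% in EPI control. In EPI knockdown it was 76.3%, 77.0% and 72.9%, without overlap. The ∆PSI of -3.78 points had an adjusted p of 0.705 from the limma-moderated test. In MES control and MES knockdown the means of that event were 76.1% and 76.6%.

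No tested event of the plus-end proteins CLIP1 and CLASP2 moved by over 5 points. In CLIP1, 5 of 8 tested events in EMT had a PSI over 95% in both groups. A 105-nt exon at chr12:122831922-122832026, coding in 5 of 11 coding transcripts, had a PSI of 0.696% ± 0.648 in EPI control and of 4.12% ± 2.77 in MES control (mean ± SD of 3 libraries each). The groups did not overlap, and the ∆PSI of 3.42 points had an adjusted p of 0.169 from the limma-moderated test. Without the second MES control it was 1.85 points, with an adjusted p of 0.76. It was at 0.216% after knockdown in EPI and at 5.03% after knockdown in MES. The 117-nt exon at chr12:122821179-122821295 had 99.1%, 99.8% and 98.5% in EPI control, EPI knockdown and MES control. A 50-nt exon, at chr12:122762701-122762750, went from 100% to 98.5% after knockdown in MES, with an adjusted p of 0.763. CLASP2 had 2 tested events in EMT, both over 95% in both groups. Its 79-nt exon at chr3:33738347-33738425 was included at 99.4% in EPI control and 98.3% in MES control, and its 71-nt exon at chr3:33653493-33653563 at 99.5% in EPI control and 100% in EPI knockdown. None of these passed.

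Many variable segments of these genes kept the reading frame. Of the 68 segments, 40 (58.8%) were a multiple of 3 nt long, and of the 48 SE exons of these genes tested in EMT 32 were, where 42.8% of the 39005 exons tested in all genes were. This is a description with no test. Microexons, of at most 27 nt, made up 3 of the 68 segments and 0.97% of the exons tested in all genes. They were the KIF21A 21-nt exon, an 18-nt exon of KIF1B and a 13-nt exon of KIF13A, and the last of these does not keep the frame. Nearly all segments, 67 of 68, equal an exon of the Gencode v44 annotation.

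The exons of other genes whose PSI followed the KIF21A 21-nt exon most closely over the 11 libraries were sought among 2384 SE exons with a PSI range of at least 30 points. The highest Pearson r was that of a 57-nt exon of CLSTN1, 0.96, followed by RPS24 (22 nt, 0.951), NFYA (87 nt, 0.947), PLOD2 (63 nt, 0.945) and SULF2 (54 nt, 0.945). CLSTN1, a transmembrane protein that links cargo to kinesin-1 through its light chain, had mean PSI values of 33.0%, 57.9%, 94.5% and 95.4% in EPI control, EPI knockdown, MES control and MES knockdown. The lowest r was that of a 33-nt exon of CA12, -0.972, followed by DEPDC1 (852 nt, -0.967), DNM1L (78 nt, -0.958), BCS1L (130 nt, -0.956) and APLP2 (168 nt, -0.954). The KIF13A 105-nt exon had an r of -0.944. The 11 libraries fall into 2 states, whose gap enters the r. Over the 6 EPI libraries alone r was 0.886 for CLSTN1, 0.979 for RPS24, 0.643 for NFYA, 0.904 for PLOD2 and 0.746 for SULF2. It was -0.96 for CA12, -0.912 for DEPDC1, -0.898 for DNM1L, -0.868 for BCS1L, -0.721 for APLP2 and -0.744 for KIF13A. These values describe likeness over shared libraries and carry no p.

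At the gene level none of the 6 genes with splicing rows met the call rule in EMT, and KIF21A came closest, with fewer reads in MES. Gene level here means the scaled junction reads of all SE events of a gene, so it also moves when splicing moves, and it cannot be compared between genes. KIF21A had 1445, 1073 and 1557 scaled reads in EPI control and 590, 639 and 1080 in MES control. The third MES control had more than the second EPI control, so the groups overlapped. Each MES control had fewer reads than the EPI control at the same place in its list, but a fit by place was not run. The log2 fold change was -0.85 (SE 0.29) with an adjusted p of 0.0451 from limma, under the log2 change of 1 needed for a call. The adjusted p was 0.062 with total junction reads and 0.0537 with the upper quartile as scaling, and 0.13 to 0.173 when the first or the third EPI control or the first or the second MES control was left out. The log2 fold change was -1.02 or beyond, and a call, when the third MES control or the second EPI control was left out, or when the best-covered event of each gene stood for the gene, as detailed with the alternatives. Under the call rule 0 of 6 genes passed in EMT, against 12.5% of 9017 genes, and at an adjusted p alone 1 of 6 did, KIF21A, against 23.9%.

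After knockdown 0 of the 6 genes passed at the gene level by limma. The shares of all genes called were 0.189% in EPI and 2.27% in MES, or 0.255% and 4.16% at an adjusted p alone. At an unadjusted p under 0.05, 0 of the 6 passed in EPI and 3 in MES (KIF21A, KIF13A and KIF1B, each lower), against 9.88% and 21.8% of all genes, and in EMT 2 did (KIF21A lower and KIF1B higher), against 36.3%. KIF21A had 2129, 1115 and 2305 scaled reads in EPI knockdown, a range that spans all 3 controls, and 420 and 485 in MES knockdown, below every MES control. Its log2 fold change was 0.39 in EPI and -0.71 in MES, with adjusted p values of 0.757 and 0.214 from limma. The second library of each EPI group was the lowest of its group for KIF21A, CLIP1 and CLASP2, and in EPI knockdown this is the library with the highest inclusion of the KIF21A 21-nt exon, whose part in that difference was not tested beyond leaving it out. KIF13A had 2012, 2348 and 1945 scaled reads in MES control and 1126 and 1850 in MES knockdown, a log2 fold change of -0.54 with an adjusted p of 0.143. KIF1B went from 797 to 594 on average in the same comparison, a log2 fold change of -0.42 with an adjusted p of 0.164. MAP4 had a log2 fold change of 0.32 in EMT with an adjusted p of 0.177, CLIP1 of -0.28 with 0.478, and CLASP2 of -0.23 with 0.525.

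**Figure D3:**
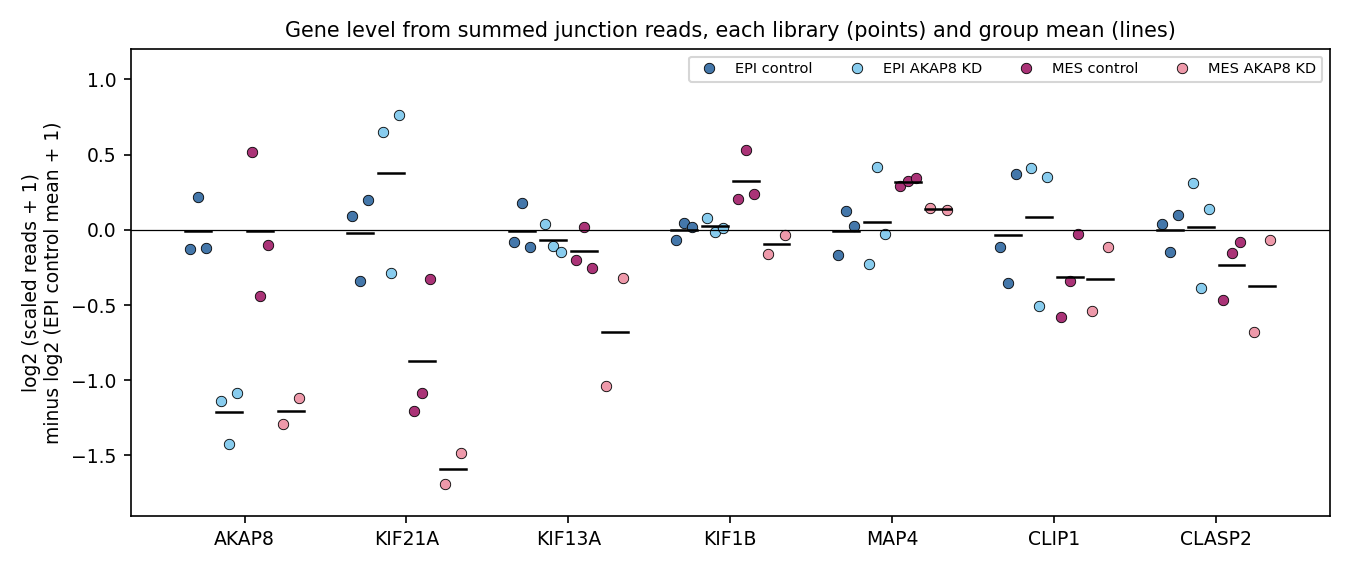
Gene level of AKAP8 and of the 6 genes (x axis) as log2 of scaled junction reads plus 1, relative to the EPI control mean (y axis, log2 units). Points are the 11 libraries and lines the mean of each of 4 groups. AKAP8 is lower in all 5 knockdown libraries, and KIF21A is lower in MES, by 0.85 on average in the controls, with overlapping groups.

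Other genes of the microtubule system were read from 4 lists. In EMT the other kinesins and their partners had 0 events with more and 3 with less inclusion of 182 tested in 27 genes, where 1.6% of all events were called in EMT. They were 2 exons of KIF23, the motor of the central spindle in cytokinesis, of 42 nt (70.9% to 57.7%) and 312 nt (48.7% to 25.3%), and a 57-nt extension in KIF2A, a microtubule depolymerase (78.1% to 61.4%). Other plus-end proteins had 6 events with more and 2 with less inclusion, of 161 in 18 genes. Among them a 66-nt and a 45-nt exon of NAV2 went from 19.2% to 57.8% and from 31.6% to 67.3%, and a 21-nt exon of NAV3 from 0.714% to 35.7%, while a 24-nt exon of NAV1 went from 32.1% to 18.6%. NAV1, NAV2 and NAV3 are the neuron navigators. The remaining plus-end events were in PHLDB1 (6.52% to 19.4%), CDK5RAP2 (79.0% to 91.3% and 61.3% to 83.0%, 2 events that share bases) and ERC1 (92.5% to 80.1%). Of the other microtubule-associated proteins, with 124 events in 22 genes, only an 85-nt exon of CCSER2 changed, from 5.46% to 23.5%. Dynein and dynactin, the motor complex that walks to the minus end, had 0 changed events of 120 in 20 genes. After knockdown in either state 0 events of the 4 lists were called in the limma-moderated test, where the shares of all events were the 0.0492% and 0.054% given above.

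At the gene level in EMT, where 12.5% of all genes were called, 1 of 25 other kinesins tested was lower and 0 were higher under the call rule. It was KIF3C, with a log2 fold change of -1.24 and an adjusted p of 0.0355 from limma. Of 16 other plus-end genes, NAV1 (1.24), NAV2 (1.53) and TACC1 (1.24) rose and CLIP2 (-1.03), CLIP4 (-1.46) and NAV3 (-1.32) fell, on the log2 scale. Of 17 other microtubule-associated genes, EML1 (2.70) and FIGNL1 (1.63) rose and EML2 (-1.64) fell. Of 18 genes of dynein and dynactin 0 passed. The median log2 fold change was 0.08 for the other kinesins, 0.26 for the plus-end genes, -0.02 for the microtubule-associated genes and -0.04 for dynein and dynactin, beside 0.01 for all genes tested.

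AKAP8 eCLIP peaks lay over 3 of the 7 genes. A peak passed when the log2 of IP over size-matched input was at least 2 and the -log10 adjusted p at least 3. MAP4 had 6 peaks in EPI, of which 5 passed, and 2 in MES, of which 1 passed. CLASP1 had 4 in EPI and 1 in MES, all passing, and KIF1B had 1 passing peak in EPI. KIF21A, KIF13A, CLASP2 and CLIP1 had none in either list. Among genes of the splicing tables, 18.6% of 11078 had a passing peak in EPI and 11.5% in MES, although CLASP1 is not among those genes. The passing peaks of these genes had log2 values of 2.86 to 3.86 in EPI, where the median of all passing peaks was 3.79. In MES they had 3.76 and 3.87, where that median was 3.49. The lists merge 2 replicates per state, so a peak has no replicate spread.

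All but 1 of the passing peaks lay in introns, and several overlapped each other. In CLASP1, EPI peaks at chr2:122114909-122115010 and chr2:122114941-122115013 overlapped the MES peak at chr2:122114916-122115009, and a further pair stood side by side at chr2:122244674-122244697 and chr2:122244698-122244741. The MES peak had a log2 of 3.76 where the EPI peaks had 3.29 and 3.12. In MAP4, 3 EPI peaks at chr3:48129811-48129868, chr3:48129814-48129860 and chr3:48129946-48130038 stood 770 to 925 nt from the start of the gene, and the MES peak at chr3:48129926-48129939 stood between them, next to but not overlapping them. Another EPI peak was deep in a MAP4 intron at chr3:48077755-48077852, 19893 nt from the nearest exon, and the peak at chr3:47893136-47893219 was in a UTR. The KIF1B peak was in an intron at chr1:10271421-10271514, 839 nt from the gene start. Sequences of 5 EPI peaks are shown, chosen as ones that hold runs of G, and capitals mark runs of 3 or more G on the transcribed strand. Of the peaks not printed, the CLASP1 peak at chr2:122244674-122244697 has no such run within its bounds, and the MAP4 peaks at chr3:48129811-48129868 and chr3:48129814-48129860 share a single one.
CLASP1 chr2:122114909-122115010: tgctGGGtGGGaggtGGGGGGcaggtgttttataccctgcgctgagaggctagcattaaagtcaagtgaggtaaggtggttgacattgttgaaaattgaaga
CLASP1 chr2:122244698-122244741: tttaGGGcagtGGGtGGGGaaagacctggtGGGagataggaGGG
MAP4 chr3:48077755-48077852: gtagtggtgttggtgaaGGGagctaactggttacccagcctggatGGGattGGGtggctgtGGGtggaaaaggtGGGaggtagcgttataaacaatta
MAP4 chr3:48129946-48130038: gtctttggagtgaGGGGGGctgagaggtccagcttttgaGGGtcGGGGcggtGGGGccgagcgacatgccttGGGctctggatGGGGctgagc
KIF1B chr1:10271421-10271514: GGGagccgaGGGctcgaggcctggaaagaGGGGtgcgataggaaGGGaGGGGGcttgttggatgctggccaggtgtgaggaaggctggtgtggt
In windows of 101 nt around the peak centre, GGG was found in 99.9% of passing EPI peaks and 99.6% of passing MES peaks, with CCC, its reverse complement, in 72.0% and 79.7%. The windows of the peaks in these genes held 4 to 8 GGG matches that did not overlap each other, where the medians of all passing peaks were 6 in EPI and 5 in MES.

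No passing peak lay within 1000 nt of any variable segment of these genes, where 2.84% of the 39005 SE exons of all genes tested in EMT had such a peak on the same strand in EPI and 1.7% in MES, and 0 of these genes' 48 did in either. The nearest passing peak, the UTR peak of MAP4, was 1434 nt from a 190-nt exon at chr3:47894653-47894842. A MAP4 peak that did not pass, at chr3:47895171-47895267 with a log2 of 2.54 in EPI, was 329 nt from that exon. KIF21A and KIF13A had no listed peak.

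**Figure D4:**
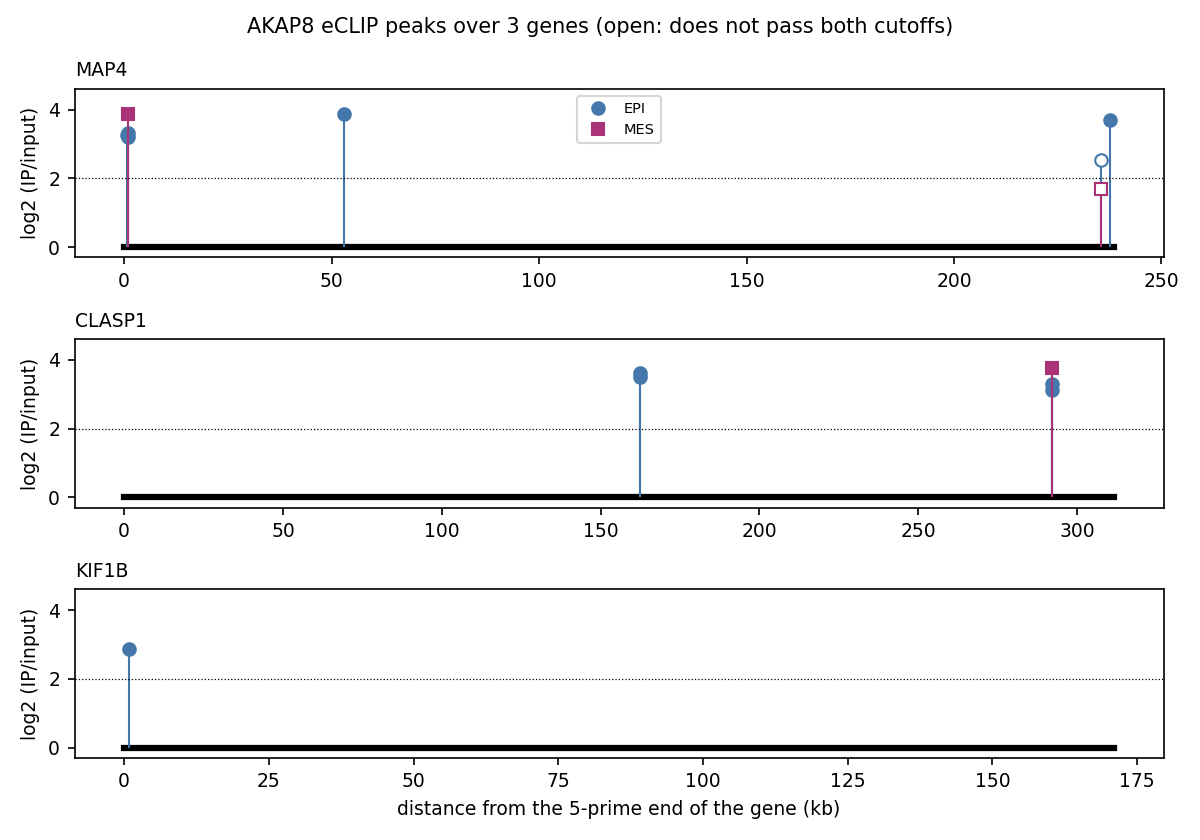
AKAP8 eCLIP peaks over MAP4, CLASP1 and KIF1B, by distance from the 5′ end of the gene (x axis, kb) and log2 of IP over input (y axis). Circles are EPI and squares MES peaks, open symbols did not pass both cutoffs, the black bar is the gene and the dotted line the log2 cutoff of 2. Passing peaks of both states overlap at 1 site of CLASP1 and stand near each other, without overlap, at the 5′ end of MAP4. The overlapping peaks near the 3′ end of MAP4 did not pass in either state.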

How the data were processed

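Per the methods, STAR was the aligner, GRCh37 the genome, and the authors counted junction reads per event with rMATS. The deposited tables list the inclusion and skipping counts of all libraries of a group in 1 field, as raw read counts. PSI was recomputed from these counts and the effective lengths in the deposited tables, so 30 columns of per-sample PSI and the authors' p-values were not used. The authors' gene table, made with DESeq2, was not used because its symbol column holds whole numbers. For AKAP8 eCLIP the authors deposited, per peak of 2 merged replicates, the log2 enrichment of IP over input, and beside it the −log10 of an adjusted p.

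Because the reads of a group share a field, no count package was used. Inclusion against skipping reads were tested with a quasi-binomial likelihood-ratio F test in R 4.3.3, with dispersions moderated by squeezeVar of limma 3.58.1 (robust trend on reads of the rarer form, at least 1, and the trend alone under 10 such reads). The Benjamini-Hochberg adjustment ran over all events of a type and comparison. All events of all genes were fitted together. Gene levels summed the reads of 33107 SE events found in all 3 comparisons (9209 genes), were scaled by median-of-ratios factors and tested with limma on log2(value + 1) for genes with at least 10 scaled reads in at least 2 libraries. Events named by rule are those called in a comparison, the exon of each gene whose SE event had the largest |∆PSI| in each comparison, events near a peak, and the 5 exons of other genes with the highest and the 5 with the lowest r. SE events that share an exon are described by the one with most reads, whose |∆PSI| can be smaller. The 39-nt and 129-nt exons of KIF21A, the MAP4 exon pair, the KIF1B 78-nt extension and the microexons were added after their values were seen. For mutually exclusive exons PSI is the use of the exon nearer the 5′ end. Positions were annotated from Gencode v44 (mapped back to GRCh37), and sequences come from that genome. Both tests were first tested on simulated data. The genes and lists were chosen with earlier results of these data known. Alternatives were other dispersion trends, limma on the logit of PSI, other read and ∆PSI cutoffs, other scalings, stricter peak cutoffs and leaving out each library.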

Additional observations from a re-analysis of the deposited data

How the results depend on the processing

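Of 534 values recomputed under other settings for 46 results, 520 kept their direction and their side of the threshold or, where the result is a count, stayed within 1.5 times of it. For the single events in EPI and EMT, only leaving out a library could change the ∆PSI. The other settings could move its p but not its direction, so part of the 520 was fixed in advance. The KIF21A 21-nt and KIF13A 105-nt exons were called in EMT under every setting tried. The number of events of these genes called in EMT rose from 2 to 3 under some settings. The added event was the KIF13A 39-nt exon with the dispersion trend on all junction reads. With limma on the logit of PSI it was the KIF21A 39-nt exon. At a |∆PSI| of at least 5 points it was the MAP4 event typed as mutually exclusive, in its version with fewer reads. After knockdown in EPI the count was 0 to 1 with 1 library left out, and the 1 came without the third EPI control, which lets the MAP4 pair pass. At the gene level in EMT the count was 0 to 1 with 1 library left out, and 1 with the best-covered SE event alone or at an adjusted p alone, always through KIF21A. Under other scalings the adjusted p of KIF21A was above 0.05 (0.0537 and 0.062). Its log2 fold change was -1.06 with the best-covered event, -0.85 at an adjusted p alone, -1.02 without the second EPI control and -1.13 without the third MES control. Scaling by total junction reads took the median log2 fold change of all genes from -0.01 to -0.135 in the MES knockdown comparison and from 0.01 to -0.103 in EMT. Under stricter peak cutoffs 7 of 10 EPI peaks and 1 of 2 MES peaks remained.

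Some small differences changed sign when 1 library was left out, each in the best-covered event of its exon. The ranges were -0.45 to 0.0166 points for the MAP4 114-nt exon after knockdown in EPI, and -3.56 to 1.15 for the KIF13A 39-nt exon and -0.456 to 0.0422 for the MAP4 1224-nt exon after knockdown in MES. The KIF1B 72-nt exon after knockdown in EPI ran from 0 to 1.34, reaching 0 without the second EPI control. Over all genes the number of called events was 32 in EPI, 0 with limma on the logit, 49 with the trend on all reads and 18 to 115 with 1 library left out. In MES it was 32, and 0 with limma on the logit and 59 with the trend on all reads. With 2 libraries per group in that comparison, leaving out 1 leaves a group of 1, so no count is given for it. In EMT it was 1078, and 471 with limma on the logit, 1503 at 5 points and 675 to 1270 with 1 library left out.

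No paired analysis was possible because the tables list the libraries of a group in 1 field and give them no replicate number. The labels number the replicates, but the tables do not say which place holds which number. Pairs could only be assumed from place, and a fit blocked by place was not run. KIF20B had 671, 325 and 1144 scaled reads in EPI control and 1047, 342 and 1498 in EPI knockdown. It had 639, 455 and 1253 in MES control, in the same order. KIF1B kept no such order. Whether place carries a shared factor was not tested. The KIF21A 21-nt and 39-nt exons rest on 10 to 185 junction reads per library, and MES knockdown has 2 libraries. The alternatives were fitted over all genes, but the results of the other lists under them are not reported here. No group has the 4 samples needed for a check of single outlying values.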

Other observations

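Of the other 4 lists, dynein and dynactin had genes that passed at the gene level after AKAP8 knockdown, in MES, and the other 3 lists had 0 in either state by limma, also at an adjusted p alone. At an unadjusted p under 0.05 these 3 lists had 5 genes in EPI and 8 in MES, of 58 tested, where 9.88% and 21.8% of all 9017 genes passed. In dynein and dynactin, 2 of 18 genes tested were higher in MES knockdown under the call rule, where 2.27% of all genes were called in either direction. DYNLL2, a dynein light chain, had mean scaled reads of 419 in MES control and 908 in MES knockdown, a log2 fold change of 1.11 with an adjusted p of 0.00676 from limma. DYNLRB1, a light chain of the roadblock type, had 594 and 1528, a log2 fold change of 1.35 with an adjusted p of 0.00962. In EPI the same 2 genes had log2 fold changes of 0.63 and 1.07, with adjusted p values of 0.15 and 0.0664. NDEL1, a dynein regulator, passed the adjusted p alone in MES, at 0.74 and 0.0378. DYNLT1, another dynein light chain, had log2 fold changes of -0.50 in EPI and -0.73 in MES, with adjusted p values of 0.317 and 0.0505, and was named after its values were seen. KLC2, a kinesin light chain named after its values were seen, did not pass and had mean scaled reads of 527 and 329 in EPI control and knockdown and of 594 and 376 in MES, with log2 fold changes of -0.68 and -0.66 and adjusted p values of 0.107 and 0.0569. The level of DYNLL2 and of DYNLRB1 rests on 1 SE event each, so a change in how that event is covered and a change in the gene cannot be told apart. The difference of these effects between the states was not tested.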
